A study of Mus musculus with 6 samples.

Results

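Endothelial cells line blood and lymphatic vessels, and the genes described here are those by which they are usually recognised, together with the ligands that guide vessel growth. The list held 45 genes, chosen by name as pan-endothelial, arterial, lymphatic, VEGF and angiopoietin genes, out of 19937 genes with a probe set annotated to a single gene. All 45 were measured, each by 1 such probe set. They comprised 15 genes of endothelial junctions and cell surface, 4 receptor tyrosine kinases, 8 transcription factors, 5 arterial genes, 4 lymphatic genes, 6 ligands and 3 genes of the apelin pathway and the chemokine receptor Cxcr7. The first 19, the junction, surface and receptor genes, are called pan-endothelial below.

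The samples were mouse gonads at embryonic stage E13.5, dissected free of the mesonephros, on 6 Affymetrix arrays with 300 ng of total RNA each. The Sox9 mutant group, labelled Sox9flox/flox; Sf1:creTr/+, had 3 arrays numbered 3, 4 and 6, each from a pool of 12 gonads. The wild-type group had 3 arrays numbered 1, 2 and 5, each from a pool of 6 gonads, and both groups were on a mixed background of C57BL6/J and 129. In the mutant a Cre recombinase under regulatory sequence of Sf1 (Nr5a1), a factor of the steroidogenic and supporting cells of the gonad, acts on floxed alleles of Sox9, the transcription factor that drives Sertoli cell differentiation. The labels give no embryo sex, no litter and no marker of recombination, and the pools are not said to stem from different litters, so p-values measure only the spread between these samples. No group with Cre alone was used here, so effects of the transgene and of the Sox9 alleles cannot be told apart. Sox9 measured 7.52, 7.78 and 7.60 log2 on the mutant arrays, against 8.82, 8.81 and 9.20 on the wild-type arrays, and fell by 1.31 ± 0.14 log2 (SE; limma adjusted p = 0.00124).

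The vessels of the fetal testis arise largely from endothelial cells that enter the gonad from the mesonephros and assemble an artery under the coelomic surface, which the fetal ovary lacks. Endothelial identity is kept by ETS and SoxF transcription factors, and growth is directed by VEGF ligands through the receptors Kdr, Flt1 and Flt4 and by angiopoietins through Tek. Arterial cells add Notch signalling, with Dll4 as ligand and Notch4 as receptor, and the gap junction connexins encoded by Gja4 and Gja5. In tissue RNA, fewer endothelial cells and less RNA of a gene per endothelial cell cannot be told apart. Nor can either be told from a change in other gonad cells that make the same RNA.

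Some arrays stood apart in genes of other cells or of sex. On wild type 5 the liver genes Alb and Afp measured 11.42 and 11.26 log2, against 5.60 to 6.60 and 5.85 to 6.33 on the mutant arrays and 5.94 to 6.06 and 5.64 to 5.79 on wild types 1 and 2. The 7 measured hepatocyte genes summed to 7359 on wild type 5 on the linear scale, against 625 to 700 on the mutant arrays and 583 and 714 on wild types 1 and 2. The liver sinusoid list, 5 genes of the specialised endothelium of that organ, summed to 688 to 750 on the mutant arrays and 635 to 693 on the wild-type arrays, with Clec4g and Fcgr2b below the background mark of 6.67 log2, the level under which 95% of olfactory and vomeronasal receptor probe sets fall. Wild type 5 had the highest sinusoid sum of the wild-type arrays, 693, which lay within the range of the mutant arrays. Gja5 and Figf, the members with the largest falls below, were refitted without such arrays. Without wild type 5, Gja5 fell by 1.45 log2 (adjusted p = 0.00489) and Figf fell by 1.58 log2 (adjusted p = 0.0106), and the pan-endothelial median difference was -0.27 log2, against -0.26 with all arrays. Xist measured 7.29 log2 on mutant 3, against 4.97 to 5.48 on the other 5 arrays, while the Y-linked Eif2s3y was between 9.56 and 9.77 on all 6 arrays. Uty, also Y-linked, measured 8.02 log2 on mutant 3 and 8.33 to 8.85 on the other 5 arrays. The Y-linked Kdm5d measured 7.98 log2 on mutants 3 and 4, against 8.16 to 8.46 on the remaining arrays. Without mutant 3, Gja5 fell by 1.32 log2 (adjusted p = 0.00429), Figf fell by 1.30 log2 (adjusted p = 0.00371), and the pan-endothelial median difference was -0.21 log2. The second principal component (23.3% of the variance) separated arrays 5 and 6, a wild type and a mutant, from numbers 1 to 4. The part of these differences between arrays in the results was not tested.

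Of the 45 genes, 3 were lower in the mutant and 0 were higher at a limma adjusted p of 0.05 over all 28187 probe sets. The genes that fell were the ligand Figf (now Vegfd), the arterial connexin gene Gja5 and the ligand Angpt1. Figf and Gja5 passed in 15 of 15 alternative fits, while Angpt1, with all values under the background mark, passed in 5 of 13. That share of 6.67% lower stood beside 4.3% of all genes called lower, with 2.64% of all genes called higher and 6.94% called either way. Those shares of all genes include dim ones, while 40 of the 45 members lay above the background mark. With probe sets under the mark dropped, 3 of 40 members were lower, beside 1133 of 13018 genes. With dim probe sets dropped by their rank in mean level, 3 of 34 members were lower, beside 1113 of 10760 genes. In both fits the share of members lower was not above that of the genes kept. At an unadjusted limma p under 0.05, 17 members were lower and 2 higher, 37.8% on the lower side, where 12.9% of all genes were lower, 8.79% higher and 21.7% either. The groups did not overlap in 18 members on the lower side (40.0%), against 16.6% of all genes, and in 2 on the higher side, where 12.1% of all genes did not. Without a call, 34 more members had a mean below wild type and 8 had one above it. The median difference of the 45 genes was -0.25 log2 with a range from -1.55 to 0.38, against a median of 0.00 over all genes, of which 49.2% lay below 0.

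**Figure D1:**
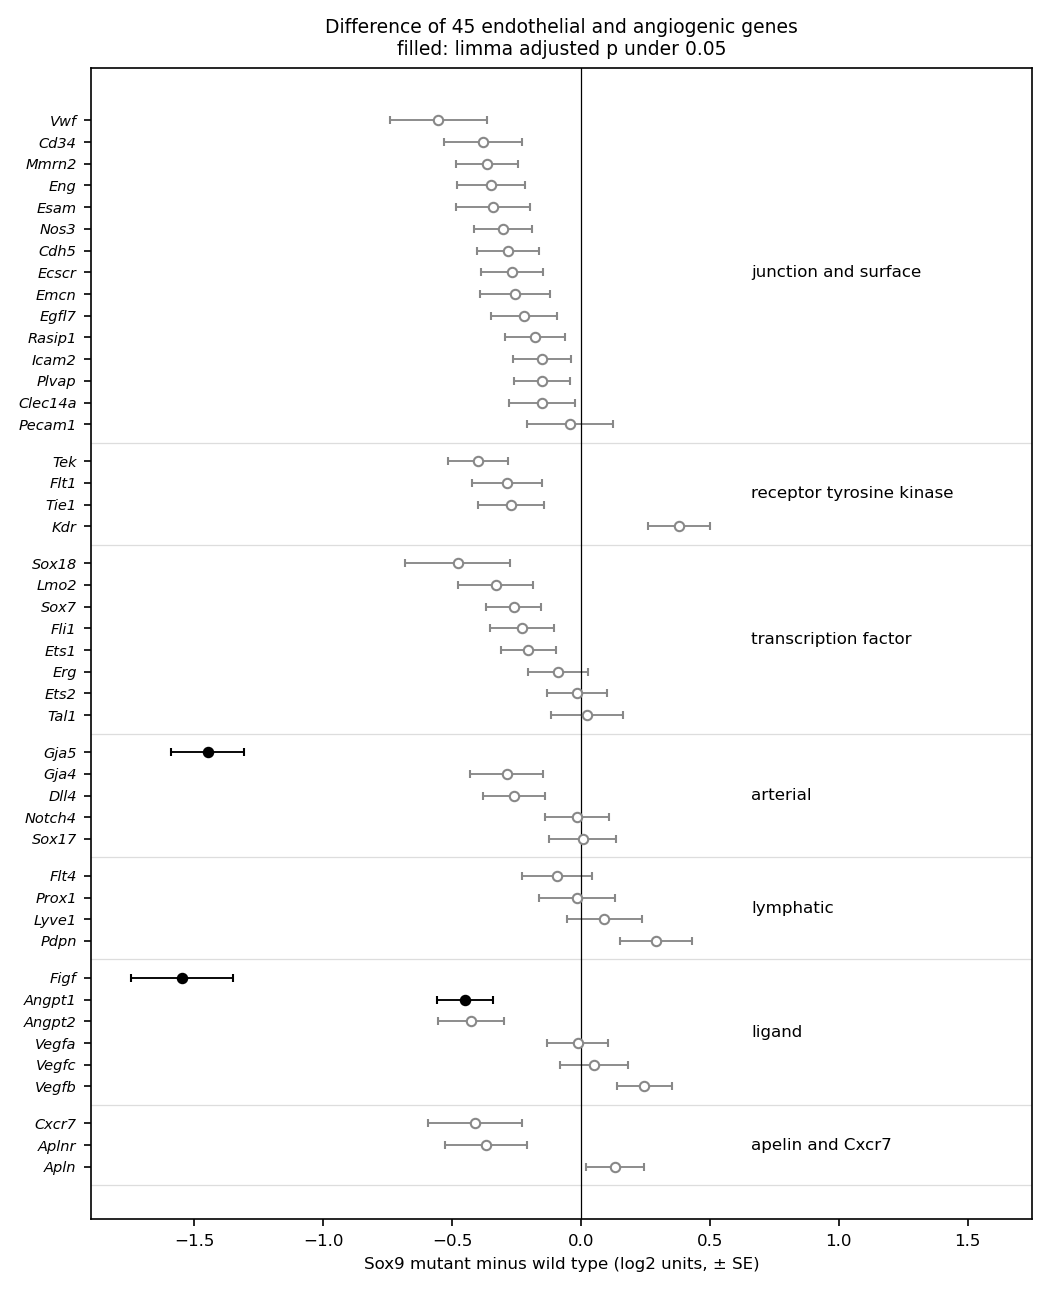
Difference between mutant and wild-type means in log2 units (x axis, negative when lower in the mutant) for each of the 45 genes, grouped by role, with moderated standard errors over 3 arrays per group. Filled points mark the 3 genes past an adjusted p of 0.05, and most open points lie between -0.55 and 0.

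Promoter windows from 250 bases before to 50 bases after a gene's start are shown for the 2 genes that fell furthest, Gja5 and Figf, each with the family member that did not pass, Gja4 and Vegfc. They come from the RefSeq promoter table for build GRCm38.p6, which held windows for 26 of the 45 genes. The Gja5 window lies at chr3:97032152-97032451 on the plus strand, Gja4 at chr4:127313990-127314289 on the minus strand, Figf at chrX:164373272-164373571 on the plus strand and Vegfc at chr8:54077282-54077581 on the plus strand. Capitals mark the letters AGGAAG, a core of ETS sites, and ACAATG or ACAAAG, forms of SOX sites, searched on both strands.
Gja5: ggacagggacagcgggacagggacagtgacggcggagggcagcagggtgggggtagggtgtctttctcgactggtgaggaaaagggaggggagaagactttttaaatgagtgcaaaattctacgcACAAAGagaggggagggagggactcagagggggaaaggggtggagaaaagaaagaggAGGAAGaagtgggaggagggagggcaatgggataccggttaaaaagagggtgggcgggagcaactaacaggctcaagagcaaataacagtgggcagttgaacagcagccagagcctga
Gja4: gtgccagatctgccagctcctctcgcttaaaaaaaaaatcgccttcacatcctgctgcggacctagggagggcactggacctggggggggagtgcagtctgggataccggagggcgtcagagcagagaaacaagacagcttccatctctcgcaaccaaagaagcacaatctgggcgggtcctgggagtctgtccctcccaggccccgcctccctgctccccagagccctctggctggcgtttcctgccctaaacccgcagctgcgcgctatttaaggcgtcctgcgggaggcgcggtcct
Figf: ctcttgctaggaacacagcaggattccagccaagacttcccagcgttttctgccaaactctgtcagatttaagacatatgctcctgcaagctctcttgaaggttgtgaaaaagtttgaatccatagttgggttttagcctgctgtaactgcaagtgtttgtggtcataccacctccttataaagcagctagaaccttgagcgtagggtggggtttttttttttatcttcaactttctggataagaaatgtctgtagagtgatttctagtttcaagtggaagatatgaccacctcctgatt
Vegfc: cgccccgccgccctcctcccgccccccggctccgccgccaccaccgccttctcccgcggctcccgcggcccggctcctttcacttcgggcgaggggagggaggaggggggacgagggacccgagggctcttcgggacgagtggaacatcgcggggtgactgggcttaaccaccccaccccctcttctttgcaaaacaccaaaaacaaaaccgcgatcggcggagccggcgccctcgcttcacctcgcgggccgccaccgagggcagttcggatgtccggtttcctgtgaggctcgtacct
The Gja5 window held ACAAAG starting 125 bases and AGGAAG starting 68 bases before the start, without overlap between them, and the other windows held none of these letters. AGGAAG stood in 33.4% and ACAATG or ACAAAG in 24.5% of 19176 windows of measured genes, and in 36.4% and 27.3% of 33 windows of the listed genes. These matches describe letters only and show no binding.

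Gja5, which encodes connexin 40 of arterial endothelium, measured 6.71, 7.04 and 7.16 log2 on mutant arrays 3, 4 and 6, against 8.53, 8.31 and 8.41 on wild-type arrays 1, 2 and 5. The groups did not overlap, and every mutant array lay more than 1 log2 unit below every wild-type array. The gene fell by 1.45 ± 0.14 log2 (SE), a 2.73-fold lower level (limma adjusted p = 0.000798). Mutant array 3 lay close to the background mark. Within numbers 1 to 4 the difference was -1.55 log2 and within numbers 5 and 6 it was -1.25 log2. Gja5 stood at rank 93 among all genes ordered from the largest fall.

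The other 4 arterial genes had smaller differences, and 0 passed in limma or had an unadjusted p under 0.05. Gja4, which encodes connexin 37, measured 7.63, 7.46 and 7.33 log2 on the mutant arrays and 7.99, 7.58 and 7.73 on the wild-type arrays (difference -0.29 ± 0.14 SE, adjusted p = 0.314). Dll4 measured 7.12, 6.87 and 6.89 log2 on the mutant arrays and 7.14, 7.18 and 7.33 on the wild-type arrays, so the groups did not overlap, although the gap was narrow (difference -0.26 ± 0.12, adjusted p = 0.286). The level of Notch4 was 7.63 ± 0.07 log2 in the mutant and 7.64 ± 0.17 in wild type (SD, n = 3 each), and that of Sox17, a SoxF factor of arteries, was 7.02 ± 0.08 in the mutant and 7.01 ± 0.20 in wild type. The sign of the Notch4 and Sox17 differences changed with further quantile normalization, and that of Sox17 also with a common median.

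**Figure D2:**
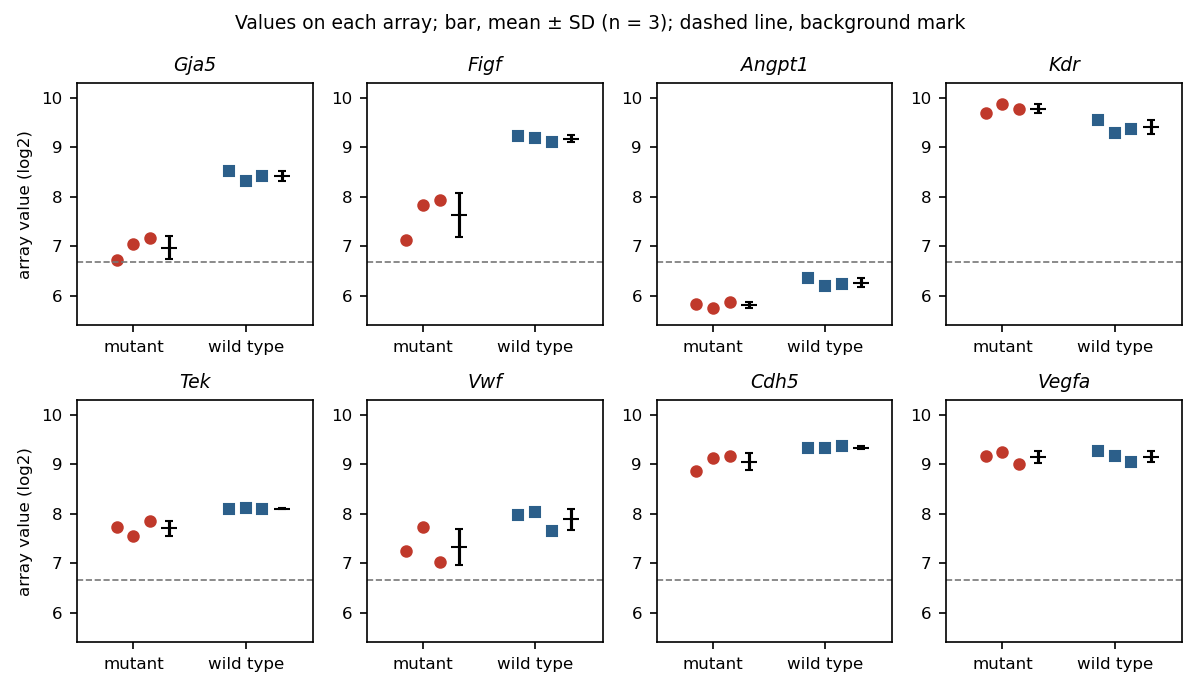
Array values in log2 units for 8 of the genes, with mutant arrays as circles on the left and wild-type arrays as squares on the right, the mean ± SD (n = 3) beside each group and the background mark of 6.67 log2 as a dashed line. Gja5 and Figf show the widest gap between groups, Kdr lies higher in the mutant, and both groups of Angpt1 lie under the dashed line.

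Averaged over arrays, the median of the arterial genes was -0.23 log2 and that of the pan-endothelial genes -0.26 log2 relative to wild type. Taking each gene's deviation from its wild-type mean, the median of the 5 arterial genes was -0.10, -0.30 and -0.33 log2 on mutant arrays 3, 4 and 6, against 0.11, -0.19 and 0.05 on wild-type arrays 1, 2 and 5. For the 19 pan-endothelial genes it was -0.36, -0.19 and -0.22 log2 on the mutant arrays, against 0.08, -0.07 and -0.00 on the wild-type arrays. The pan-endothelial medians of the groups did not overlap, while the arterial ones did. Arterial minus pan-endothelial averaged 0.01 ± 0.21 log2 in the mutant and -0.01 ± 0.09 in wild type (SD, n = 3 each), with no test since the genes were chosen with earlier results known. The sign of that comparison turned to -0.09 without mutant 3 and to -0.016 without wild type 2, and to -0.16 when means over genes replaced medians, so no order between the classes was read from it.

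Gja5 lay further down than both medians on every mutant array. Its deviation minus the pan-endothelial median was -1.35, -1.19 and -1.04 log2 on mutant arrays 3, 4 and 6, against 0.03, -0.04 and -0.00 on wild-type arrays 1, 2 and 5. The median of the 4 arterial genes without it averaged -0.15 log2 in the mutant and 0.00 in wild type. Gja5 was set apart as the arterial gene with the largest fall, so these gaps follow in part from that choice.

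**Figure D3:**
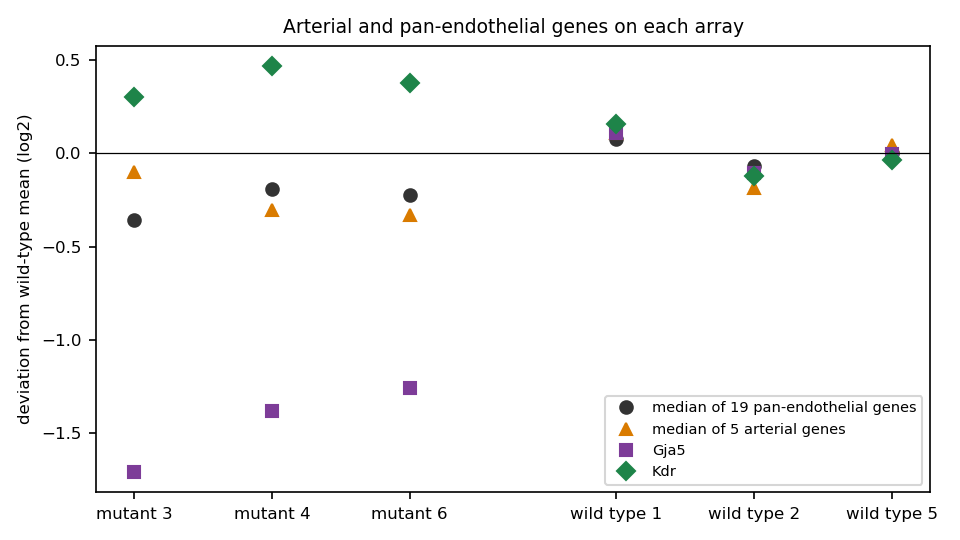
Deviation from the wild-type mean in log2 units (y axis) on each of the 6 arrays, mutant arrays left, for the median of 19 pan-endothelial genes, the median of 5 arterial genes, Gja5 and Kdr. On the mutant arrays Gja5 lies between -1.71 and -1.26 and Kdr between 0.30 and 0.47, with both medians between -0.36 and -0.10.

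Junction and surface genes had 0 of 15 past the threshold, and the mean of each was lower in the mutant, from -0.55 to -0.04 log2 (median -0.27). In 8 of the 15 the groups did not overlap (53.3%), against 16.6% of all genes on that side, and 7 had an unadjusted limma p under 0.05 on the lower side, where 12.9% of all genes did. Cdh5, the cadherin of endothelial adherens junctions, measured 8.87, 9.13 and 9.18 log2 on the mutant arrays and 9.33, 9.32 and 9.37 on the wild-type arrays (difference -0.28 ± 0.12 SE, adjusted p = 0.235). Mmrn2, a matrix protein deposited around endothelium, measured 7.78, 7.78 and 7.89 log2 on the mutant arrays and 8.34, 8.02 and 8.19 on the wild-type arrays (-0.37 ± 0.12, adjusted p = 0.129). Both genes showed a full but small separation.

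Eng, a co-receptor for TGF-beta ligands, measured 8.43 ± 0.07 log2 in the mutant and 8.78 ± 0.21 in wild type. For Esam, an adhesion molecule of tight junctions, the level was 7.55 ± 0.03 log2 in the mutant and 7.89 ± 0.26 in wild type. For Nos3, the endothelial nitric oxide synthase, it was 7.10 ± 0.12 log2 in the mutant and 7.40 ± 0.05 in wild type (SD, n = 3 each). These 3 genes had no overlap between groups and adjusted p from 0.181 to 0.232. Ecscr, Rasip1 and Plvap had no overlap either, with differences of -0.27, -0.18 and -0.15 log2.

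Vwf, the clotting glycoprotein stored in endothelial granules, had the largest difference of the junction and surface genes and a wide spread. It measured 7.24, 7.74 and 7.03 log2 on mutant arrays 3, 4 and 6, against 7.99, 8.03 and 7.65 on wild-type arrays 1, 2 and 5. Mutant 4 reached above wild type 5, so the groups overlapped (difference -0.55 ± 0.19, adjusted p = 0.141). With a term that sets numbers 5 and 6 apart Vwf passed (adjusted p = 0.0418), as it did without mutant 4 (adjusted p = 0.0437).

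Pecam1, an adhesion molecule of all endothelium, had the smallest difference of the junction and surface genes, at -0.04 ± 0.17 log2 (SE, adjusted p = 0.929). It measured 8.86, 9.05 and 9.47 log2 on mutant arrays 3, 4 and 6, against 9.22, 8.999 and 9.30 on wild-type arrays 1, 2 and 5. Its sign changed with further quantile normalization. The highest of all 6 values was that of mutant 6, and the difference was -0.15 log2 within numbers 1 to 4 and 0.17 within numbers 5 and 6. Cd34, a surface sialomucin that blood progenitors also carry, measured 9.10, 9.39 and 9.45 log2 on the mutant arrays and 9.77, 9.44 and 9.87 on the wild-type arrays, where mutant 6 just exceeded wild type 2. Emcn, Egfl7, Icam2 and Clec14a overlapped too, with differences of -0.25, -0.22, -0.15 and -0.15 log2, and the mutant mean of Clec14a (6.52 log2) lay below the background mark.

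Of the 4 receptor tyrosine kinases 0 passed, and 2 had an unadjusted limma p under 0.05, Tek lower and Kdr higher. At that p 12.9% of all genes were lower and 8.79% higher. Kdr lay higher in the mutant and the others lower. Kdr, the main signalling receptor for VEGF-A, measured 9.70, 9.87 and 9.78 log2 on the mutant arrays, against 9.56, 9.28 and 9.37 on the wild-type arrays. Every mutant array was above every wild-type array, and the difference of 0.38 ± 0.12 log2 did not pass (adjusted p = 0.113, range over alternatives 0.0509 to 0.290). Its deviation minus the pan-endothelial median was 0.65, 0.66 and 0.60 log2 on mutant arrays 3, 4 and 6, against 0.08, -0.05 and -0.04 on wild-type arrays 1, 2 and 5. Kdr was set apart as the only pan-endothelial gene with a mean above wild type, so this gap follows in part from that choice.

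Tek, the angiopoietin receptor, measured 7.73, 7.54 and 7.85 log2 on the mutant arrays and 8.11 on each of the wild-type arrays. The groups did not overlap (difference -0.40 ± 0.12, adjusted p = 0.0922), and Tek passed with array weights (adjusted p = 0.0404) and when dim probe sets were dropped, by the mark or by their rank in mean level (0.0494 and 0.0424). Tie1, an orphan receptor that modulates Tek, had a difference of -0.27 ± 0.13 log2 (adjusted p = 0.298). Flt1, a receptor that binds VEGF-A and limits its action on Kdr, had one of -0.29 ± 0.14 (adjusted p = 0.295).

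None of the 8 transcription factors passed. At an unadjusted limma p under 0.05, 3 were lower (37.5%, against 12.9% of all genes). Means lay below wild type in 7 (median -0.22 log2), where 49.2% of all genes lay below 0. Sox7, a SoxF factor, measured 7.61, 7.62 and 7.66 log2 on the mutant arrays and 7.82, 7.95 and 7.90 on the wild-type arrays, a narrow separation with little spread in either group (difference -0.26 ± 0.11, adjusted p = 0.214). Sox18, the SoxF factor of early lymphatic and blood endothelium, measured 7.85, 7.44 and 8.14 log2 on mutant arrays 3, 4 and 6, against 8.19, 8.04 and 8.62 on wild-type arrays 1, 2 and 5 (difference -0.48 ± 0.20, adjusted p = 0.239). Its groups overlapped, and wild type 5 was the highest array. The difference was -0.31 log2 without wild type 5 and -0.29 without mutant 4.

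Lmo2, a partner of Tal1 in blood and endothelial precursors, measured 8.62, 8.68 and 8.75 log2 on the mutant arrays and 8.87, 8.86 and 9.32 on wild-type arrays 1, 2 and 5 (difference -0.33 ± 0.14, adjusted p = 0.252). Without wild type 5 this difference was -0.18 log2. Ets1, an ETS factor of endothelium and lymphocytes, measured 9.50 ± 0.03 log2 in the mutant and 9.71 ± 0.08 in wild type (SD, n = 3 each) with no overlap. Fli1 and Erg, further ETS factors, had differences of -0.23 and -0.09 log2. Ets2 and Tal1 were at -0.02 and 0.02 log2, and the sign of Ets2 changed with further quantile normalization.

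Lymphatic genes showed no common direction, with 0 of 4 called by limma, 0 at an unadjusted p under 0.05, 0 without overlap and a median difference of 0.04 log2. Flt4, the receptor for VEGF-C and VEGF-D, measured 6.996 ± 0.158 log2 in the mutant and 7.09 ± 0.18 in wild type, and Lyve1, a hyaluronan receptor of lymphatic endothelium and some macrophages, measured 7.01 ± 0.15 in the mutant and 6.92 ± 0.23 in wild type (SD, n = 3 each). Prox1, the factor that specifies lymphatic endothelium, lay below the background mark in both groups, at 6.13 ± 0.24 log2 in the mutant and 6.15 ± 0.14 in wild type, which leaves only a bound on its level. Pdpn, a mucin-type glycoprotein made by lymphatic endothelium and by other cell types, measured 9.36, 9.72 and 9.81 log2 on the mutant arrays and 9.30, 9.30 and 9.41 on the wild-type arrays (difference 0.29 ± 0.14, adjusted p = 0.298).

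Of 6 ligand genes 2 fell (33.3%, against 4.3% of all genes) and 4 did not pass. Figf, which encodes VEGF-D, a ligand of Flt4, measured 7.12, 7.82 and 7.94 log2 on mutant arrays 3, 4 and 6, against 9.23, 9.20 and 9.10 on wild-type arrays 1, 2 and 5. All mutant values lay more than 1 log2 unit below all wild-type values, and the mutant arrays spread more widely (SD 0.44) than the wild-type arrays (SD 0.06). Figf fell by 1.55 ± 0.20 log2, a 2.92-fold lower level (limma adjusted p = 0.00259), which was rank 76 among all genes ordered from the largest fall. Within numbers 1 to 4 the difference was -1.74 log2, and within numbers 5 and 6 it was -1.16 log2.

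Vegfc, the other ligand of Flt4, averaged 7.12 ± 0.15 log2 in the mutant and 7.07 ± 0.17 in wild type (SD, n = 3 each; difference 0.05 ± 0.13 SE, adjusted p = 0.893). Vegfa, the main attractant of blood vessels, measured 9.18, 9.25 and 9.01 log2 on the mutant arrays and 9.27, 9.16 and 9.05 on the wild-type arrays (difference -0.01 ± 0.12, adjusted p = 0.973), and its sign changed with further quantile normalization. Vegfb, a ligand of Flt1, measured 9.63, 9.53 and 9.63 log2 on the mutant arrays and 9.36, 9.29 and 9.41 on the wild-type arrays. The groups did not overlap, with the mutant higher, and the difference of 0.25 ± 0.11 log2 did not pass (adjusted p = 0.249).

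Angpt1, the activating ligand of Tek, measured 5.83, 5.75 and 5.86 log2 on the mutant arrays and 6.36, 6.19 and 6.23 on the wild-type arrays. All 6 values lay under the background mark. The groups did not overlap, and Angpt1 fell by 0.45 ± 0.11 log2 (SE; limma adjusted p = 0.0465). The call ended without any 1 array (adjusted p from 0.0655 to 0.176), with eBayes with trend and robust (0.0646) and among numbers 1 to 4 alone (0.0973). Angpt2, a ligand of Tek that loosens vessels, also lay under the mark, at 6.12, 5.98 and 6.21 log2 on the mutant arrays and 6.63, 6.62 and 6.34 on the wild-type arrays (difference -0.43 ± 0.13, adjusted p = 0.0977). With array weights Angpt2 passed (adjusted p = 0.0355).

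Aplnr, the apelin receptor of venous and sprouting endothelium, measured 9.24, 9.55 and 8.99 log2 on the mutant arrays and 9.79, 9.61 and 9.49 on the wild-type arrays, with mutant 4 above wild type 5 (difference -0.37 ± 0.16, adjusted p = 0.245). Its ligand gene Apln differed by 0.13 ± 0.11 log2 (adjusted p = 0.599). Cxcr7 (now Ackr3), a scavenger receptor for the chemokine Cxcl12, measured 6.30 ± 0.29 log2 in the mutant, below the background mark, and 6.71 ± 0.27 in wild type (SD, n = 3 each; difference -0.41 ± 0.18, adjusted p = 0.259).

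Further lists of vascular genes outside the 45 gave mixed counts. Of 15 other pan-endothelial genes 0 passed in limma, and 2 were lower and 2 higher at an unadjusted p under 0.05. The 13.3% lower stood beside 12.9% of all genes, with 8.79% of all genes higher. On the lower side 2 had no overlap (13.3%), against 16.6% of all genes. The median of this list was -0.08 log2, nearer to 0 than that of the 19 genes above. Of its most abundant genes, Rhoj, a small GTPase of endothelium, differed by -0.16 log2 and S1pr1, a receptor for sphingosine-1-phosphate, by 0.42 log2 (adjusted p = 0.608 and 0.234). Among 10 other arterial genes Hey2, a Notch target, fell by 0.75 ± 0.12 log2 (adjusted p = 0.00859) with both means below the background mark, and 9 did not pass (median -0.30). At an unadjusted p under 0.05, 5 of the 10 were lower and 1 higher, and 6 had no overlap on the lower side. The one that lay higher was Jag2, a Notch ligand (difference 0.50 ± 0.16 log2, adjusted p = 0.121). The call of Hey2 was lost without wild type 1 (adjusted p = 0.0505). The ephrin gene Efnb2, a classical arterial marker, differed by -0.25 ± 0.13 log2 (adjusted p = 0.357), and Cxcr4, the signalling receptor for Cxcl12, by -0.33 ± 0.20 (adjusted p = 0.430). The Cxcr4 difference was -0.54 log2 within numbers 1 to 4 and 0.09 within numbers 5 and 6. Of 3 venous genes 1 fell (33.3%, against 4.3% of all genes). Nr2f2, which specifies veins and is also made by interstitial cells of the gonad, fell by 0.66 ± 0.14 log2 (adjusted p = 0.0273). Ephb4, a receptor for Efnb2, differed by 0.02 log2 (adjusted p = 0.954). At an unadjusted p under 0.05, 2 of the 3 were lower (66.7%, against 12.9% of all genes). Those without overlap on the lower side were also 2 (66.7%, against 16.6% of all genes).

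In a list of tip cell and sprouting genes 1 of 7 measured genes rose and 1 fell (14.3%), where 2.64% of all genes were called higher and 4.3% lower. At an unadjusted limma p under 0.05, 3 were lower (42.9%) and 1 higher, where 12.9% of all genes were lower and 8.79% higher. On the lower side 3 had no overlap (42.9%), against 16.6% of all genes. Adm, which encodes the vasodilator peptide adrenomedullin, measured 7.84 ± 0.17 log2 in the mutant and 6.73 ± 0.11 in wild type (SD, n = 3 each), and rose by 1.10 ± 0.13 log2, 2.15-fold (adjusted p = 0.00165). Pgf, a ligand of Flt1, fell by 0.70 ± 0.16 log2 (adjusted p = 0.034). The call of Pgf was lost without mutant 3, 4 or 6, without wild type 1 or 5 and among numbers 1 to 4 alone (adjusted p up to 0.134). That of Nr2f2 was lost among numbers 1 to 4 alone and without any 1 array except mutant 4 (adjusted p up to 0.108).

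Genes of the mural cells that wrap vessels were lower in part. Of 8 measured genes 3 fell (37.5%, against 4.3% of all genes) and 5 did not pass. Those that fell were Pdgfrb by 1.16 ± 0.13 log2 (adjusted p = 0.00141), Notch3 by 0.97 ± 0.13 (adjusted p = 0.00287) and Cspg4 by 0.58 ± 0.11 (adjusted p = 0.0151). Pdgfrb is also made by interstitial progenitors of the gonad. The call of Cspg4 was lost without mutant 4, wild type 1 or wild type 2 and among numbers 1 to 4 alone (adjusted p up to 0.0674). Summed on the linear scale, the 8 genes ranged from 1629 to 1910 on the mutant arrays, against 2801 to 3016 on the wild-type arrays, and Higd1b lay below the background mark in both groups. Without Pdgfrb and Notch3 the sums of the other 6 were 821 to 893 on the mutant arrays and 966 to 1014 on the wild-type arrays. Pdgfrb and Notch3 had the largest falls of the list, so the smaller gap follows in part from that choice. Rgs5, Abcc9 and Des differed by -0.40, -0.14 and -0.03 log2, and Kcnj8 and Higd1b by 0.03 and 0.29, none past the threshold. The part of mural cells in the values of the 45 genes was not tested.

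**Figure D4:**
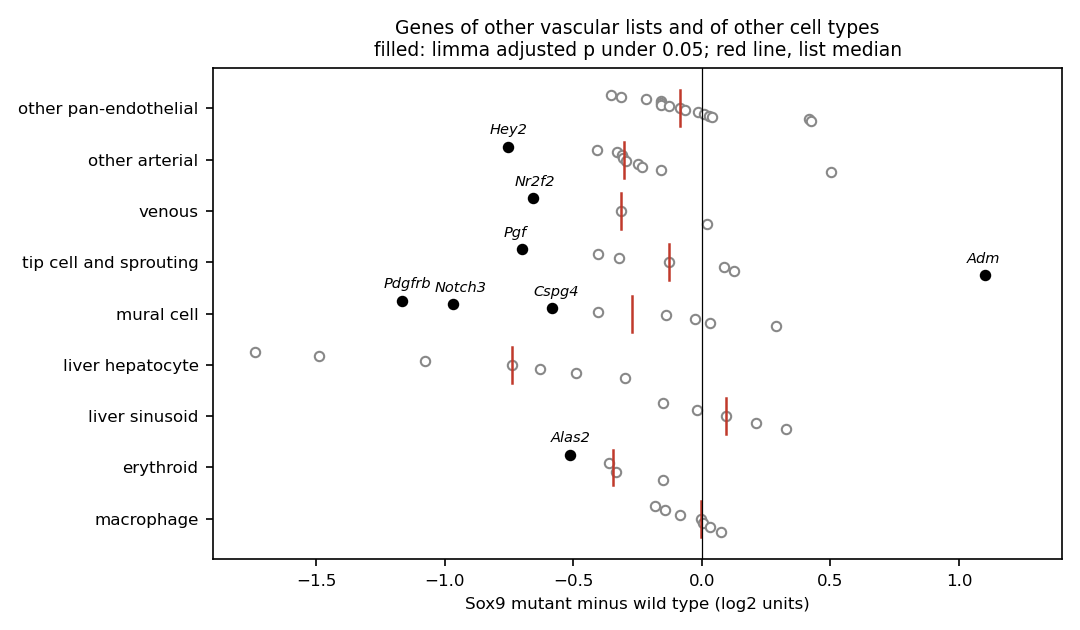
Difference between mutant and wild-type means in log2 units (x axis) for each gene of 9 further lists (y axis), with the list median as a red line and filled points for genes past an adjusted p of 0.05. Pdgfrb, Notch3, Cspg4, Hey2, Nr2f2, Pgf and Alas2 lie on the lower side and Adm on the higher side.

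Genes of other cell types that the dissection could carry were summed on the linear scale. Of 4 measured erythroid genes Alas2 fell by 0.51 log2 (adjusted p = 0.0334), a call lost without any 1 array, with further quantile normalization and among numbers 1 to 4 alone (adjusted p up to 0.123). The 4 genes summed to 4225 to 6981 on the mutant arrays and 6727 to 7539 on the wild-type arrays. Most of that sum was Hbb-y, which measured 11.87 log2 on mutant 3 and 12.51 to 12.74 on the other 5 arrays. The highest erythroid sum was that of wild type 5, where Klf1 measured 7.52 log2 and Epor 7.29. On the other 5 arrays Klf1 measured 6.53 to 6.84 log2 and Epor 6.87 to 7.05. Alas2 was highest on wild type 2. None of 7 macrophage genes passed in limma, 0 had an unadjusted p under 0.05, and 4 of them lay below the background mark. Among 6 genes of the mesonephros list, Emx2, which the gonadal surface epithelium also makes, and Gata3 rose by 1.61 and 1.203 log2 (adjusted p = 0.00252 and 0.000662), where the wild-type mean of Gata3 lay below the background mark, and Lhx1 fell by 0.96 log2 (adjusted p = 0.0162, up to 0.0834 and lost without mutant 3, wild type 1 or wild type 2). Thus 2 of the 6 rose and 1 fell (16.7%), where 2.64% of all genes were called higher and 4.3% lower. The list summed to 1244 to 1632 on the mutant arrays and 845 to 948 on the wild-type arrays. Without Emx2 it summed to 719 to 775 on the mutant arrays and 638 to 724 on the wild-type arrays. The part of blood, liver or mesonephric cells in the values of the endothelial genes was not tested.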

How the data were processed

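The deposited table held log2 values of 34760 rows on 6 arrays, made with RMA per the submitters' processing notes. RMA corrects background and equalises array distributions, which compresses differences near background and hides a general change of RNA content. Its version and the genome build, not given in the sources used here, are unknown. Array medians were 7.17 to 7.24 log2. Left out as controls were 6573 rows with identifiers below the lowest annotated one. Among the remaining 28187 probe sets, 21640 named a single gene, 1321 named several and 5226 named none.

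Differences (mutant minus wild type) were fitted in limma (version 3.58.1, R 4.3.3) by lmFit and eBayes, two-sided, with Benjamini-Hochberg adjustment over all 28187 probe sets and a threshold of 0.05, and the fit was tested on simulated data. Where a gene had several single-gene probe sets, the brightest on average was used. The background mark was the 95th percentile of 1204 olfactory and vomeronasal receptor probe sets. The number of arrays limits the precision.

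Members, lists and roles were chosen with earlier results of these data known. Named were all members and, of the other lists, genes that passed and some of the most abundant ones. Other abundant genes of those lists, such as Nid2 and Csf1r, were left out of the account. Alb, Afp, Xist, Eif2s3y, Uty, Kdm5d, Higd1b, Clec4g, Fcgr2b, Jag2, Rgs5, Abcc9, Des, Kcnj8, Klf1 and Epor were picked after their values were seen, as was the use of the alternatives on genes of other lists. Alternatives covered normalization (quantile, common median), dim probe sets, the variance model (trend and robust, array weights), numbers 5 and 6 as a term, numbers 1 to 4 alone, averaged probe sets, single arrays left out, a threshold of 0.01 and other groupings.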

Additional observations from a re-analysis of the deposited data

How the results depend on the processing

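No paired analysis was possible because the groups share no replicate number. Gja5 and Figf passed in all 15 alternative fits, with adjusted p up to 0.00818 and 0.0206. Among these fits, averaged probe sets left the values of members unchanged. The count of members lower was 5 with array weights, 4 with numbers 5 and 6 as a term and 2 to 3 with single arrays left out. Of all 19937 genes, 1018, 1241 and 330 to 746 were lower in the same fits, and 682, 820 and 262 to 546 higher. No member was higher in any alternative (2 at an unadjusted limma p under 0.05). By medians, arterial minus pan-endothelial ran from -0.094 to 0.090 log2 with single arrays left out. With means over genes it was -0.16 and the arterial difference was -0.40, with no array left out. Of 659 values of members under alternatives 33 changed sign, in 10 members with differences near 0. With further quantile normalization Pecam1 was at 0.0086 log2, Ets2 at 0.044, Sox17 at -0.023, Notch4 at 0.0090 and Vegfa at 0.053, and with a common median Sox17 was at -0.016. With array weights Ets2 was at 0.0070, Notch4 at 0.0037, Prox1 at 0.050 and Vegfa at 0.0092. Among numbers 1 to 4 alone Ets2 was at 0.0073, Notch4 at 0.047, Flt4 at 0.077 and Prox1 at 0.20. With single arrays left out the range was -0.22 to 0.089 for Pecam1, -0.060 to 0.047 for Ets2, -0.055 to 0.12 for Tal1, -0.11 to 0.074 for Sox17, -0.11 to 0.058 for Notch4, -0.036 to 0.18 for Lyve1, -0.12 to 0.12 for Prox1, -0.068 to 0.055 for Vegfa and -0.032 to 0.13 for Vegfc. The cause of these changes was not tested. Signal near the background mark limits Angpt1, Angpt2 and Prox1 in both groups and Clec14a and Cxcr7 in the mutant.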
